A study of Mus musculus with 6 samples.

Results

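The phosphoinositide phospholipase C (PLC) isoforms are described here from the RNAseq of immortalized mouse fibroblasts (MF). They were chosen by gene symbol, as the genes of the beta, gamma, delta and epsilon classes, and 9 of the 10 symbols were found among the 19078 genes of the table. *Plcd4*, a delta isoform, was not analysed here. RNAseq was performed on 3 libraries of *Ms4a15* OE cells and 3 libraries of control cells. *Ms4a15* OE cells are a pooled population in which a CRISPR activation system with a guide for *Ms4a15* raises transcription of that gene, which encodes a membrane protein of the endoplasmic reticulum (ER). Control cells are labelled wild type, and the series and the methods describe them as parental cells and as cells with an empty vector. Both come from embryonic fibroblasts with conditional *Gpx4* alleles and Cre-ERt2, a Cre recombinase switched on by tamoxifen, and no treatment is given for the libraries.

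PLC cleaves the membrane lipid PIP2 into IP3, which opens IP3 receptors in the ER and releases Ca2+, and diacylglycerol, which stays in the membrane and activates protein kinase C. The classes differ in what activates them. Beta isoforms answer to G-protein coupled receptors through Gq and G beta-gamma subunits, gamma isoforms to tyrosine kinases, delta isoforms to Ca2+ itself, and the epsilon isoform to small G proteins such as those of the Ras and Rap families. The question put to these data was which isoform fibroblasts transcribe most.

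Each gene has a single value here, the authors' mean over all 6 libraries of its read counts, divided by size factors that correct for depth (mean normalized count). This mean joins *Ms4a15* OE and control. It has no SD and no test. On its own, it cannot tell a gene present in both groups from a gene present in a single group. The isoforms were therefore not compared between *Ms4a15* OE and control, and which isoform leads within each group was not tested. To compare levels between genes, the mean was divided by the length of the longest coding transcript of the gene, giving normalized counts per kb. The level of *Ms4a15* in each library was not analysed here, so the labels were not checked against the targeted gene. The size factors ranged from 0.887 to 1.14, so the deepest library was 1.28 times as deep as the shallowest. Of 13 fibroblast marker genes, 12 were found, with levels from 0.276 per kb for the proteoglycan gene *Lum* to 52501 per kb for the intermediate filament gene *Vim*. High levels were seen for *Vim*, for *Col1a1* and *Col1a2*, the chains of type I collagen, at 11295 and 25272 per kb, and for *Fn1*, fibronectin, at 13739 per kb. *Lum*, and *Dcn* at 6.88 per kb, were low. *Pdgfra*, at 40.6 per kb, was under the median of 197 per kb over protein-coding genes, and *Fap* was not found. The fibroblast label thus held for part of the list.

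*Plcb3* and *Plcg1* carried most of the PLC transcripts. Together they made up 66.9% of the summed level per kb of the 9 isoforms, *Plcb3* alone 40.3% and *Plcg1* 26.6%. *Plcd3* followed with 14.4%, and *Plcb2* and *Plce1* were lowest, with 0.117% and 0.0036%. The order per kb was *Plcb3*, *Plcg1*, *Plcd3*, *Plcd1*, *Plcb4*, *Plcb1*, *Plcg2*, *Plcb2* and *Plce1*. Beta isoforms held 49.0% of the total, gamma isoforms 29.0%, delta isoforms 22.0% and the epsilon isoform 0.0036%.

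**Figure D1:**
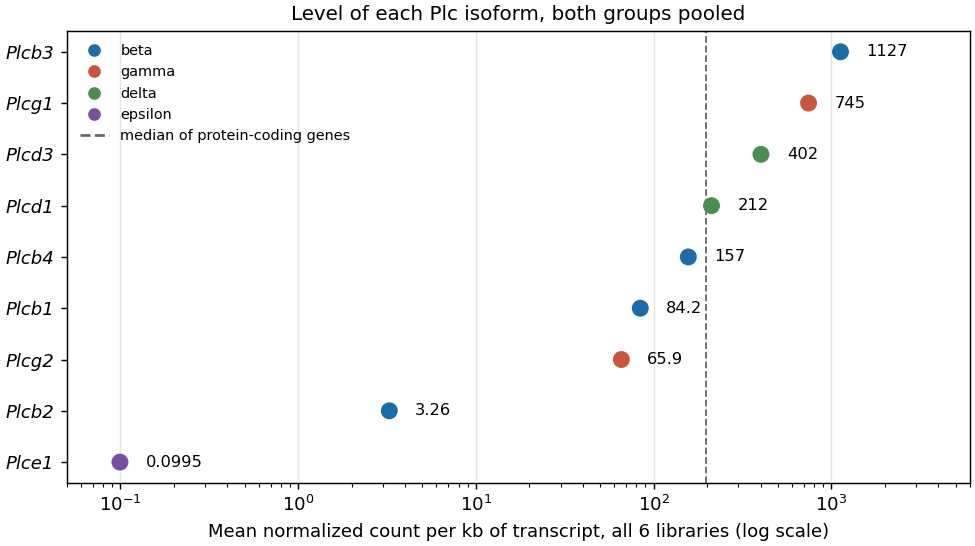
Level of each PLC isoform as the authors' mean normalized count per kb of the longest coding transcript, over all 6 libraries of both groups, on a log axis; colours give the class and the dashed line the median of 14010 protein-coding genes (197 per kb). *Plcb3* at 1127 per kb and *Plcg1* at 745 per kb lie farthest to the right, and *Plce1* at 0.0995 per kb farthest to the left.

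The promoters of the 2 highest isoforms and of *Plcb2* are shown because they differ in CpG, the sequence CG, which reads the same on both strands and is dense in the promoters of many broadly expressed genes. Each run is from the 250 bases before the start of transcription in RefSeq (GRCm38.p6), 5′ to 3′ on the strand of the gene, with CG in capitals. *Plcb3* and *Plcg1* lead the order and *Plcb2* is near its end. The *Plcb3* run lies at chr19:6969815-6970064 (reverse strand), the *Plcg1* run at chr2:160731060-160731299 (forward strand), without the last 10 bases, which GENCODE vM21 places in an exon, and the *Plcb2* run at chr2:118728439-118728688 (reverse strand). For *Plce1* the 250 bases, at chr19:38523947-38524196 (forward strand), lie wholly in an exon of a longer *Plce1* transcript in GENCODE and are not shown. GENCODE also holds transcripts of *Plcb3* and *Plce1* that start farther upstream, so both stretches lie inside the genes, and the sequence before those starts was not analysed here.
Plcb3: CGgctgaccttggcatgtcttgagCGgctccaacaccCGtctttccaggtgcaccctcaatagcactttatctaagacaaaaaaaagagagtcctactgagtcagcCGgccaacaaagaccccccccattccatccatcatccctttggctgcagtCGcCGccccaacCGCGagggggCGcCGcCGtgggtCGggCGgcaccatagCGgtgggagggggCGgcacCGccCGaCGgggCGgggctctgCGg
Plcg1: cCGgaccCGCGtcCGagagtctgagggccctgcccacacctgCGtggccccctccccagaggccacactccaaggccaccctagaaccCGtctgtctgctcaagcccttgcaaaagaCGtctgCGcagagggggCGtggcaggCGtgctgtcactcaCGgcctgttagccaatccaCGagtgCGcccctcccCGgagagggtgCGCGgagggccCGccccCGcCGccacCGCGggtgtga
Plcb2: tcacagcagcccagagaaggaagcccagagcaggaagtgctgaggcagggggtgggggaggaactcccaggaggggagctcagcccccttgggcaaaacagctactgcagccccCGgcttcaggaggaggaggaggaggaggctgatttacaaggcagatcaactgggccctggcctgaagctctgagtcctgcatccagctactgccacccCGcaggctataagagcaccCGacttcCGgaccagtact

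The *Plcb3* promoter held 20 CpG and the *Plcg1* promoter 21, numbers reached by 17.9% and 16.3% of the 32851 promoters of the table. The *Plcb2* promoter held 4 CpG and the 250 bases before the RefSeq start of *Plce1* 6, numbers reached by 62.2% and 50.4% of all promoters. Of the other isoforms, *Plcb1* had 22 CpG, *Plcd3* 18 and *Plcg2* 17. *Plcd1* had 20 CpG at its upstream start and 8 at a second start. *Plcb4* had 42 CpG at its upstream start, reached by 0.865% of promoters, and 3 at a second start. These numbers count all 250 bases, also where they lie in annotated exons. Of these bases, 158 lay in exons of *Plcb4* itself, 97 of those for *Plcb1* in its own exons, and 107 of those for *Plcd3* in exons of *Acbd4*. The longest run outside exons held 17 CpG for *Plcb4*, 13 for *Plcb1* and 5 for *Plcd3*. The *Plcb4* bases also lie inside the gene, which starts farther upstream in GENCODE. Taking the start with most CpG for each gene, 7 isoforms were above and 2 at or under the median of 15 CpG over the 10927 genes with a level and a promoter. Among all these genes, 89.3% of those above the median and 62.7% of those at or under it reached a mean of 10 normalized counts, with a median level of 435 and 43.0 per kb. Over all 250 bases, the number of CpG did not order the 7 isoforms above the median. *Plcb4*, with most CpG in these bases, was the fifth in level. Whether CpG outside exons order the isoforms was not analysed here. CpG and its median were chosen for description after the levels were seen, and no test was made.

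**Figure D2:**
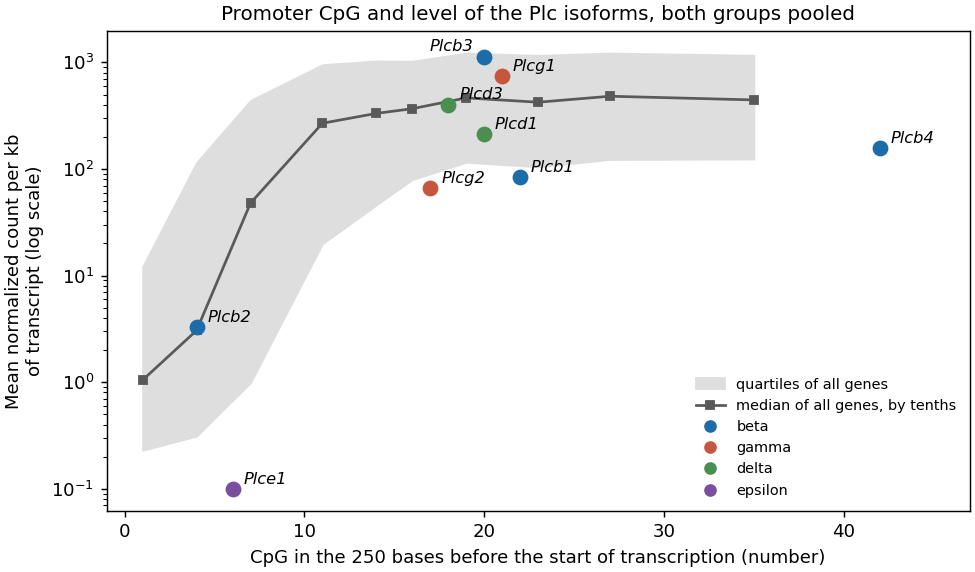
Number of CpG in the 250 bases before the start of transcription (horizontal) against mean normalized count per kb over all 6 libraries (vertical, log scale), with coloured points for the 9 isoforms and, for 10927 genes in 10 bins of CpG, the median (line) and quartiles (band). *Plcb2* with 4 CpG and *Plce1* with 6 lie apart from the 7 isoforms with 17 to 42 CpG, and *Plce1* lies below the band. The numbers include CpG in bases that lie in annotated exons.

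Among the beta isoforms, *Plcb3* stood far above the rest. *Plcb3*, a beta isoform found in many tissues, lies on chromosome 19 of GRCm38 from 6952325 to 6976470, with 31 exons in its longest coding transcript. Its mean was 4797 normalized counts, and its level per kb was above that of 81.2% of protein-coding genes. *Plcb4*, known from retina and cerebellum, had a mean of 819 normalized counts and 157 per kb, which put *Plcb3* 7.18 times higher per kb. *Plcb1*, known from cerebral cortex, had a mean of 607 normalized counts and 84.2 per kb, 13.4 times under *Plcb3*. Both lie on chromosome 2, *Plcb1* from 134786067 to 135475258 and *Plcb4* from 135659011 to 136014593, each on the forward strand. *Plcb2*, the beta isoform of blood cells, also on chromosome 2 from 118707517 to 118728438, had a mean of 16.8 normalized counts and 3.26 per kb. That was 346 times under *Plcb3*.

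*Plcg1* led the gamma isoforms. *Plcg1*, the isoform that growth factor receptors recruit and phosphorylate in most tissues, lies on chromosome 2 from 160731300 to 160775760. It had a mean of 3806 normalized counts and 745 per kb, above 73.7% of protein-coding genes. *Plcg2*, which acts in B cells and myeloid cells, lies on chromosome 8 from 117498291 to 117635142 and had a mean of 283 normalized counts and 65.9 per kb. *Plcg1* was 11.3 times higher per kb. Of 12 markers of blood cells, 10 were found, with levels from 0.150 per kb for *Vav1* to 405 per kb for *Lyz2*, a lysozyme gene of myeloid cells, and 5 reached a mean of 10. *Ptprc*, the common leukocyte antigen, was at 2.20 per kb, *Cd68*, a lysosomal protein of macrophages, at 134 per kb and *Csf1r*, the receptor of a macrophage growth factor, at 2.82 per kb. *Ptprc* and *Csf1r* lay near the level of *Plcb2*, whereas *Lyz2* and *Cd68* lay above *Plcg2*. The level of *Plcg2* was 20.2 times that of *Plcb2*. In bulk RNA, a few cells with a high level and many with a low one cannot be told apart. The part of blood cell RNA in the levels of *Plcb2* and *Plcg2* was not tested.

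Both delta isoforms found were transcribed. *Plcd3*, on chromosome 11 from 103070304 to 103101658, had a mean of 1216 normalized counts and 402 per kb. *Plcd1*, on chromosome 9 from 119071527 to 119093502, had a mean of 573 normalized counts and 212 per kb, so that *Plcd3* was 1.90 times higher. By longest coding transcript, the delta genes found are the shortest of the 9 isoforms. *Plcd3* has 3023 bases and *Plcd1* 2706, against 4257 for *Plcb3* and 7202 for *Plcb1*. The share of the delta genes, 22.0% per kb, was therefore larger than their 14.8% of the normalized counts not divided by length.

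*Plce1*, the single epsilon isoform, was near the limit of detection. It lies on chromosome 19 from 38481109 to 38785030 and had a mean of 0.939 normalized counts, or 0.0995 per kb, with a level in the lowest 5.12% of protein-coding genes. This mean can be written in a single way as whole reads over the 6 size factors, with 6 reads in all, found in 4 of the libraries and at most 3 in any of them. The exact 95% Poisson interval of those 6 reads corresponds to a mean from 0.345 to 2.04 normalized counts. This interval stayed under the 3.01 normalized counts that 3 reads in every library would give. It covers counting over both groups joined, and neither the spread between libraries nor the level within a group. The libraries with reads were not tied to *Ms4a15* OE or control. With 3 libraries in each group, the 4 with reads must include libraries of both groups.

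The depth behind the other isoforms was large. From the size factors, the reads of *Plcb3* in all libraries numbered between 25514 and 32715, those of *Plcg1* between 20242 and 25956, and those of *Plcg2* between 1507 and 1932. *Plcb2* had between 89 and 114 reads, which gives a counting error of at most 10.6% of its mean. For *Plcb3* the counting error was 0.626%. These errors cover counting only and not the spread between libraries, which the mean does not hold, so whether neighbours in the order differ beyond that spread was not tested. The closest neighbours were *Plcb1* and *Plcg2*, 1.28 times apart per kb, followed by *Plcd1* and *Plcb4*, 1.35 times apart.

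The order of these close neighbours depended on the length used. *Plcb3*, *Plcg1* and *Plcd3* led in this order under each of the 4 choices, which were the longest coding transcript, the coding length, all annotated exons and no division. *Plcb3* was 1.51 times above *Plcg1* per kb of transcript, 1.33 times per kb of coding length, 1.42 times per kb of all exons and 1.26 times without division. *Plcd1* was above *Plcb4* per kb but at 0.700 of it without division by length. *Plcg2* moved above *Plcb1* when all annotated exons were counted, which make *Plcb1* 11115 bases long. Exons of *Plcg1* overlapped *Zhx3* on the opposite strand over 379 bases and the antisense gene *Gm27206* over 248 bases, 4.82% and 3.16% of its exon length. *Plcb1* and *Plcb3* overlapped other genes over at most 1.60%. The labels name a library kit that keeps the strand and the methods of the paper one that is not said to, and the strand setting of the counting is not given in the sources used here. Reads of *Plcg1* and of the genes on its opposite strand therefore may not have been told apart where they overlap.

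**Figure D3:**
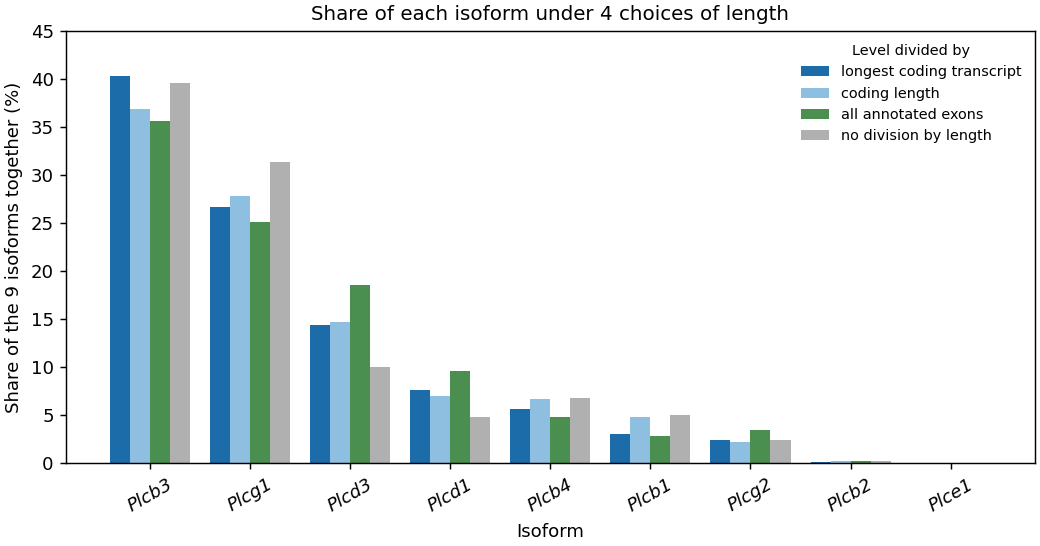
Share of each isoform in the sum over the 9 isoforms, in percent, with bars for the 4 lengths by which the authors' mean over all 6 libraries was divided. *Plcb3* holds 35.7% to 40.3% and *Plcg1* 25.1% to 31.4%, and both stay above every other isoform.

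Upstream of the beta isoforms, 2 of the 4 Gq class alpha subunits reached a mean of 10 normalized counts. These were *Gna11* at 965 per kb and *Gnaq* at 444 per kb, whereas *Gna15*, known from blood cells, was at 1.24 per kb and *Gna14* at 0.316 per kb. *Gna11* and *Plcb3* were thus the highest members of their lists. All 8 of the listed G beta and gamma subunits, chosen from a larger family, were above the minimum, led by *Gnb2* at 14828 per kb. Of 35 receptors known to couple to Gq, 29 were found and 11 reached that mean. The thrombin receptor *F2r* was highest at 642 per kb, followed by the lysophosphatidic acid receptor *Lpar1* at 356 per kb and the sphingosine 1-phosphate receptor *S1pr2* at 152 per kb. The bradykinin receptor genes were at 116 per kb for *Bdkrb1* and 18.6 per kb for *Bdkrb2*. The paper used bradykinin to release ER Ca2+, and which receptor answered to it was not tested. Over the protein-coding genes with a length, 74.0% reached a mean of 10 normalized counts, against 8 of the 9 isoforms.

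Upstream of the gamma isoforms, 14 of 18 receptor tyrosine kinases were found and 10 reached a mean of 10 normalized counts. *Met*, the receptor of hepatocyte growth factor, was highest at 967 per kb, with *Fgfr1* at 823 and *Pdgfrb* at 397 per kb. *Egfr* was at 1.95 per kb and *Erbb3* at 2.55 per kb, while *Erbb2* was at 336 per kb. Of the kinases and adaptors that act on gamma isoforms, 9 of 10 were found. *Src* and *Fyn*, kinases of many cell types, were at 792 and 647 per kb. *Syk*, *Btk*, *Lyn*, *Blnk*, *Lat* and *Lcp2*, which act with gamma isoforms in blood cells, were between 0.124 and 8.98 per kb. The 7 small G proteins found of the 9 listed for the epsilon isoform were between 162 and 6352 per kb, led by *Rhoa*, beside a *Plce1* level of 0.0995 per kb.

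The lists for the substrate and products of PLC are read against the 74.0% of protein-coding genes that reached a mean of 10 normalized counts. Of 18 genes that supply PIP2, 15 reached a mean of 10 normalized counts, and the median over the list was 537 per kb against 157 per kb for the 9 isoforms and 197 per kb for protein-coding genes. The phosphatidylinositol transfer proteins *Pitpnb* and *Pitpna* led at 2757 and 2355 per kb, and *Cdipt*, which makes phosphatidylinositol, was at 1335 per kb. All 3 IP3 receptor genes were transcribed, *Itpr3* at 668 per kb, *Itpr1* at 411 per kb and *Itpr2* at 137 per kb. Their sum of 1216 per kb lay near the level of *Plcb3* alone. Of 11 genes that remove IP3 or break down its products to inositol, 9 reached a mean of 10. The highest was *Impa1*, a phosphatase of inositol monophosphates and not of IP3, at 1086 per kb, followed by the IP3 phosphatase *Inpp5a* at 528 per kb. Of the diacylglycerol kinases, 8 of 10 were found, and *Dgkz* led at 973 per kb. Of 14 diacylglycerol targets 11 were found, and the protein kinase C genes *Prkcd* and *Prkca* led at 1025 and 554 per kb.

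**Figure D4:**
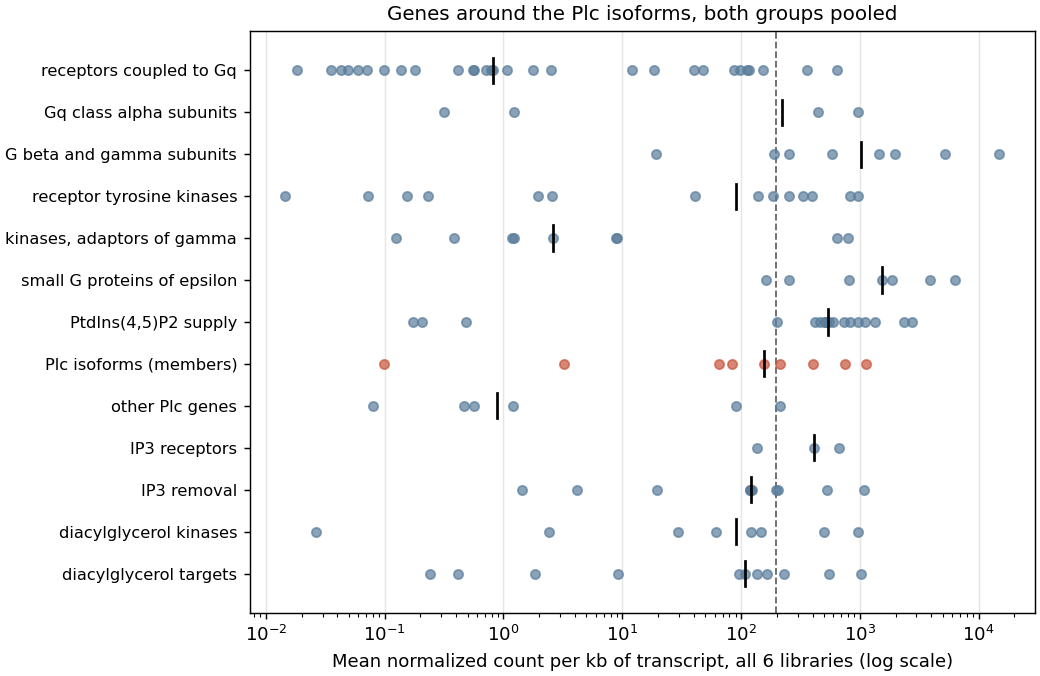
Mean normalized count per kb of transcript over all 6 libraries (log scale) for the genes listed around the PLC isoforms, 1 point per gene found, with a black bar at the median of each list and a dashed line at the median of protein-coding genes (197 per kb). The 9 isoforms, in red, spread from 0.0995 to 1127 per kb, while the 3 IP3 receptors lie between 137 and 668 per kb.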

How the data were processed

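Poly(A)-selected RNA from 3 *Ms4a15* OE and 3 control libraries of mouse fibroblasts was sequenced. Per the methods of the paper, the authors aligned reads to mm10 with STAR and used HTSeq-count for gene counts, whereas the submitters' processing notes also name TopHat and Cufflinks. The signal deposited by the authors is a pooled value per gene: counts were scaled by DESeq2 size factors and averaged across the 6 libraries. The 5 other columns hold the authors' comparison of the groups, as fold changes, their errors, p-values and a direction, and were not used. The tests planned on single libraries were therefore not run.

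Size factors were recovered, a step chosen after seeing the data, from the 6 values that repeat among the lowest means, those of 1267 genes with 1 read in 1 library. All 3097 genes with a mean under 1 were sums of whole reads over these factors, within 2e-07, and the procedure was tested on simulated data. No factor was tied to a group. Lengths came from GENCODE vM21 (GRCm38), which gave 14010 protein-coding genes of the table a length. Of all genes with a mean of at least 10, 80.3% had a length. Levels over lists are described by counts and medians, with a minimum mean of 10 normalized counts, and every listed isoform and leading genes of each list are named, and some listed genes are not reported here. The isoforms and lists were chosen with earlier results of these data known. Whether the libraries come from separate cultures is not given in the sources used here. Python 3.11.15, numpy 2.4.6, pandas 2.3.3 and matplotlib 3.10.9 were used.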

Additional observations from a re-analysis of the deposited data

How the results depend on the processing

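The share of *Plcb3* in the level per kb of the isoforms, 40.3%, was 36.9% with the coding length and 39.6% without division by length. It was 37.4% when *Plch1*, *Plch2*, *Plcl1* and *Plcl2* were added to the total, without *Plcxd2* and *Plcxd3*. With all annotated exons, a length chosen after seeing the data, it was 35.7%. The share of *Plcg1*, 26.6%, was 27.8%, 31.4%, 24.8% and 25.1% in the same order. The log2 ratio of *Plcb3* to *Plcg1*, 0.60, was 0.41 with the coding length, 0.33 without division and 0.51 with all exons. The log2 ratio of *Plcd1* to *Plcb4* turned from 0.43 to -0.51 without division, and that of *Plcb1* to *Plcg2* from 0.35 to -0.27 with all exons, since these settings change the lengths alone. Of 17 values, counting those above, 13 moved beyond counting error with the coding length. Without division and with all exons 12 moved each, beside the 1 that turned in each. With *Plch1*, *Plch2*, *Plcl1* and *Plcl2* added, 7 moved, all of them shares. This setting only enlarges the total, so the log2 ratios between isoforms could not move. All settings use the same reads, so counting error is only a yardstick of size here and these counts are not tests. Leaving out isoforms with a mean under 10 moved none of the 15 values recomputed beyond counting error. This outcome was fixed by the setting, which removes only *Plce1*, with 0.0036% of the total.

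Other normalizations, count filters, a replicate block, pseudocounts and leaving out each replicate were listed beforehand and could not be computed from a pooled mean. No paired analysis was possible because the single mean covers both groups. Depth limits *Plce1* most, with 6 reads in all.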

Other observations

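Of the other Plc genes, *Plcl2*, a related protein without lipase activity, was at 212 per kb, close to *Plcd1*. *Plcxd2* was at 91.5 per kb, between *Plcb4* and *Plcb1*. *Plcl1* was at 1.19 per kb. *Plch1* and *Plch2*, the eta class, had 18 and 20 reads in all. Each had reads in 5 of the 6 libraries, and thus in both groups. *Plch1* had at most 8 reads in a library and *Plch2* at most 6. Their means of 3.06 and 3.18 normalized counts had exact Poisson intervals, which cover counting only, from 1.81 to 4.83 and from 1.94 to 4.92. *Plcxd3* had a mean of 0.147 normalized counts, that of 1 read in the deepest library.

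Of markers of other cell types, all 6 epithelial genes were found, between 0.0863 per kb for *Epcam* and 5.56 per kb for *Krt8*. All 4 endothelial genes were found, between 0.230 per kb for *Kdr* and 26.7 per kb for *Cdh5*. Of 4 neuronal genes 1 was found, the tubulin gene *Tubb3* at 1319 per kb. Whether any of these levels comes from *Ms4a15* OE, from control or from both was not tested.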
